A study of Mus musculus with 4 samples.

Results

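Inner dynein arms are rows of motor complexes along the microtubule doublets of cilia and of the sperm tail, where they shape the bend of the beat. Each motor is built on dynein heavy chains, very large proteins whose ring of ATPase domains pulls on the neighbouring doublet. The inner arms hold several single-headed dyneins and a complex, dynein f, that has a pair of heavy chains. RFX2 belongs to the RFX family of winged-helix transcription factors, which bind an inverted repeat named the X-box and are known as regulators of ciliary genes in many animals.

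The 8 mouse genes Dnah1, Dnah2, Dnah3, Dnah6, Dnah7a, Dnah7b, Dnah10 and Dnah12, taken by name from 21938 protein-coding genes, were examined for peaks of RFX2 chromatin immunoprecipitation (ChIP-seq). Dnah10 and Dnah2 encode the heavy chains of dynein f, and the others encode single-headed inner arm dyneins. All material was wild-type testis on a mixed background of C57BL/6, 129/Sv and FVB/N, labelled as postnatal days 29 to 30, whereas the text of the study describes dissociated germ cells of younger animals. The 4 samples comprised 2 RFX2 immunoprecipitations, replicates 1 and 2, and 2 inputs, for which no peak list was analysed here. The labels do not say whether the replicates came from separate animals. All values come from peaks called in chromatin of many cells, whose contributing cell types cannot be told apart, and no group lacking RFX2 was compared.

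The peaks came from 3 lists, 1 for each replicate and 1 combined list. Replicate 1 had 39825 peaks and replicate 2 had 21274, with 1 value per peak on a −log10 scale and lowest values of 2.03 and 2.08, so both lists hold many weak peaks. The combined list had 2726 peaks with −log10 p of at least 43.2, a fold enrichment and a summit. The depth of the libraries is unknown from these lists, and values were compared by rank within a list rather than between lists. A promoter was taken as 1000 bp upstream to 500 bp downstream of any annotated transcription start site (TSS) on GRCm38, and a peak counted if it met this window by 1 bp.

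In replicate 1, 6 of the 8 genes had a promoter peak (Dnah1, Dnah6, Dnah7a, Dnah7b, Dnah10 and Dnah12), where 14% of all protein-coding genes had one. In replicate 2 there were 3 (Dnah1, Dnah7a and Dnah10), against 11.3% of all genes. The same 3 genes therefore had a promoter peak in each replicate, against 9.05% of all genes. In the combined list 1 of 8 remained, Dnah10, against 5.26% of all genes. Dnah2 and Dnah3 had no promoter peak in any list. With 8 genes these shares carry wide counting error, and Dnah7a and Dnah7b, closely related copies, are not independent of each other.

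**Figure D1:**
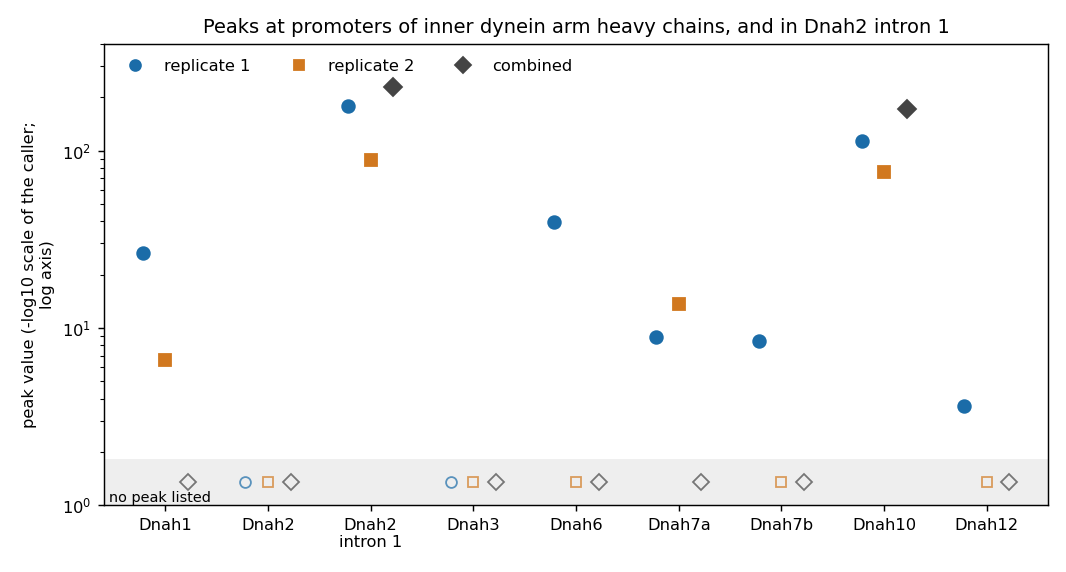
Value of the highest promoter peak of each gene in replicate 1 (circles), replicate 2 (squares) and the combined list (diamonds) on the caller's −log10 scale, drawn on a log axis, with the peak in intron 1 of Dnah2 added. Open symbols in the grey strip mark lists without a peak, and Dnah10 and the intron of Dnah2 are the only places filled in all 3 lists.

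Dnah10 (chr5:124725085-124834308, plus strand, ENSMUSG00000038011.15) had the strongest promoter peak of the 8. The replicate 1 peak had a value of 113.70 and rank 525, the replicate 2 peak 75.85 and rank 237, which are within the top 1.32% and 1.11% of their lists. In the combined list the peak at chr5:124724555-124725910 had a −log10 p of 171.21, a fold enrichment of 28.2 and rank 372. Its summit lay 9 bp upstream of the only protein-coding start of the gene. Among all promoter peaks it stood above 90.8% of those in replicate 1, 92.6% in replicate 2 and 77.7% in the combined list. The peak also met the promoter of an antisense transcript on the other strand, 4930404A12Rik, and it cannot assign binding to either gene. The 4 other annotated starts of Dnah10, all of non-coding transcripts inside the gene, had no peak.

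The X-box was searched as the 14-base palindrome GTTGCCATGGCAAC, with up to 3 mismatches, which reads the same on both strands. The combined peak of Dnah10 held 1 such site, near its edge at 477 bp from the summit, with the substitutions C6T, C11T and C14A (palindrome base, position counted from 1 at the 5′ end, genome base). At the summit itself the closest match was an exact 7-base half-site, GTTGCCA, 22 bp away and just downstream of the TSS. Both windows are shown on the gene's strand, with the matched part in capitals, to set the weak full site beside the half-site at the summit.
Dnah10 X-box, chr5:124724584-124724613: ttgcttctGTTGCTATGGTAAAacaccatc
Dnah10 half-site, chr5:124725084-124725113: ctagggtcgccGTTGCCAcggacgcccgcc
Of the combined promoter peaks of all genes, 60.6% held an X-box by the same rule and 41.3% held an exact half-site.

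Dnah2 (chr11:69420809-69549110, minus strand, ENSMUSG00000005237.14), the other heavy chain of dynein f, had no peak at the promoter of any of its 6 annotated starts. It did have the peak with the highest value in each list in or near any of the 8 genes, inside intron 1. The replicate 1 peak had a value of 179.73 and rank 175, and the replicate 2 peak 88.58 and rank 163. In the combined list the peak at chr11:69546026-69546940 had a −log10 p of 227.46, a fold enrichment of 20.3 and rank 166. By rank it stood closer to the top of each list than the promoter peak of Dnah10, but its fold enrichment was below the 28.2 of that peak. The summit of the intron 1 peak lay 2552 bp downstream of the 5′-most TSS and 2002 bp upstream of the next protein-coding TSS. The edge nearest to that second start was 1470 bp from it in the combined list, 1431 bp in replicate 1 and 1630 bp in replicate 2, so that the peak missed the 1000 bp promoter window in every list. No other annotated gene overlapped it.

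Upstream of Dnah2 lay a further pair of combined peaks, and together with the intronic one these 3 peaks spanned 12.4 kb. The first, at chr11:69552516-69553616, was intergenic with its summit 3997 bp upstream of the 5′-most TSS. It had a −log10 p of 129.05 in the combined list, and values of 143.05 in replicate 1 and 19.39 in replicate 2. The second, at chr11:69557226-69558474, lay within the neighbouring gene Efnb3, which encodes an ephrin ligand, 8642 bp upstream of Dnah2. It had a −log10 p of 125.14 in the combined list, and values of 88.42 in replicate 1 and 27.3 in replicate 2. Replicate 1 placed both within its top 2.1% while replicate 2 placed them at 8.54% and 5.54%, a wider gap between replicates than at intron 1 (0.439% and 0.766%). The sequences show that the Efnb3 peak holds the palindrome without a mismatch, 35 bp from its summit, and that the intergenic peak holds a site with T3C, G4A and C6T, 17 bp from its summit.
Dnah2 upstream, intergenic, chr11:69553109-69553138: tggcaaccGTCACTATGGCAACacagagcc
Dnah2 upstream, in Efnb3, chr11:69557772-69557801: ggcatcctGTTGCCATGGCAACggcaccgg
X-boxes were found in 86.1% of all combined peaks outside promoters, whose median width was 891 bp. Another combined peak lay beyond the 3′ end of Dnah2 at chr11:69418918-69419494, with a −log10 p of 54.71, and 2 weaker peaks of both replicates followed it toward Kdm6b, a histone demethylase gene whose promoter met 1 of them. None of the other 7 genes had a combined peak in the 10 kb on either side that was not its promoter peak.

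**Figure D2:**
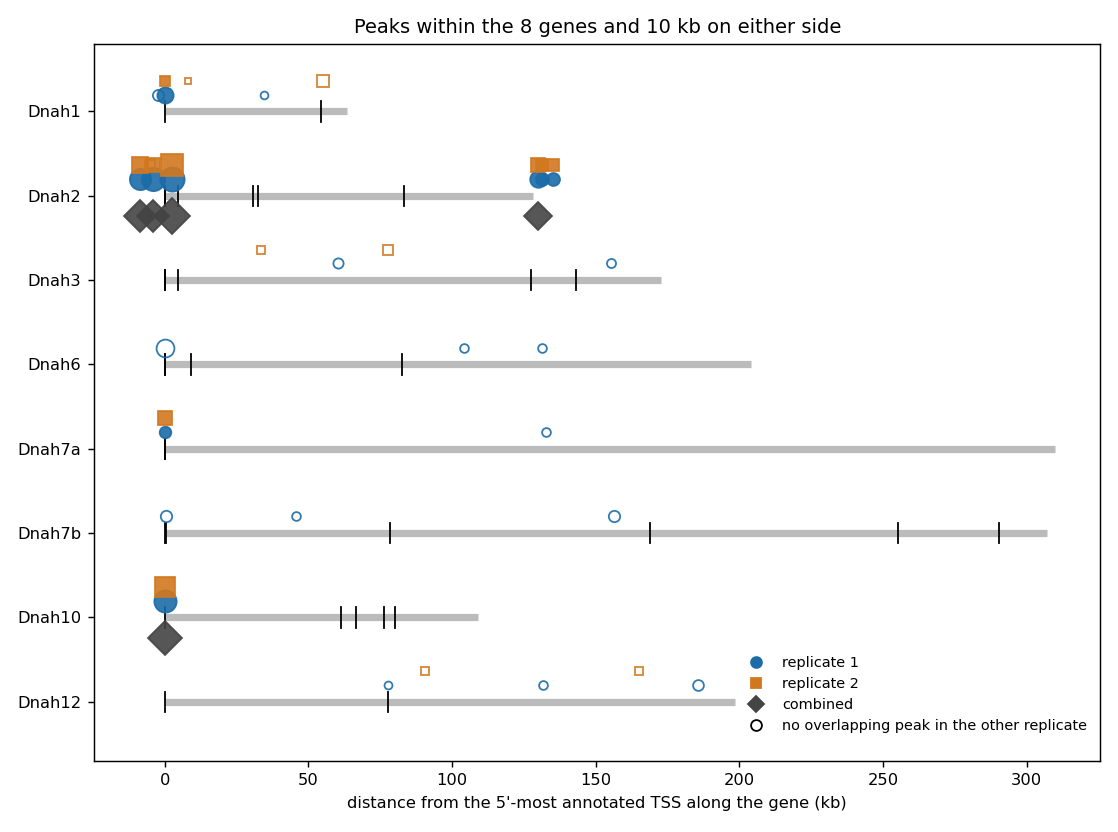
Peaks in the 8 genes and 10 kb beyond each end, by distance in kb from the 5′-most TSS along the gene (grey bars, gene span; black ticks, annotated TSSs; symbol size grows with the log of the peak value). Filled symbols have an overlapping peak in the other replicate or are combined peaks; inside the genes and outside promoters, only the peak in intron 1 of Dnah2 is filled.

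Dnah1 (chr14:31260375-31323896, minus strand, ENSMUSG00000019027.8), a single-headed dynein whose loss is a known cause of malformed sperm tails, had a promoter peak in both replicates but not in the combined list. The value was 26.63 in replicate 1 (rank 3379) and 6.61 in replicate 2 (rank 5875). The peak centres lay 7 bp downstream and 19 bp upstream of the coding TSS, which is also the start behind the RefSeq promoter of Dnah1. The outer end of its RefSeq gene lies 1995 bp further upstream, and with that end as the only start neither peak met the promoter window, and Dnah1 was no longer called in both replicates. The peak was above the median of all promoter peaks of replicate 1 (12.62) and below that of replicate 2 (10.33). It also met the promoter of a long intergenic non-coding RNA on the opposite strand, Gm49217. Neither peak held an X-box, and the closest 14-base match had 4 mismatches. A separate, weaker replicate 1 peak of value 7.85 at chr14:31326015-31326183, 2203 bp upstream of the coding TSS, had no overlapping peak in replicate 2. It lay inside the promoter window of the outer RefSeq end, and it met the promoter of another long intergenic non-coding RNA, Gm49791. It held a site with 1 mismatch, T2C, 36 bp from its centre.
Dnah1 upstream, chr14:31326048-31326077: gggctgatGCTGCCATGGCAACccacttgg
At Dnah1, then, the stronger peak sat at the coding TSS without a 14-base site. The near-complete site sat in a weak peak of 1 replicate, within the promoter window of the outer RefSeq end.

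Dnah6 (chr6:73017606-73221651, minus strand, ENSMUSG00000052861.13) had the sharpest difference between replicates. Its promoter peak in replicate 1, chr6:73221186-73222005, had a value of 39.43 and rank 2319, within the top 5.82% of the list, and a centre 36 bp downstream of a coding TSS. No peak of replicate 2 met it. The nearest replicate 2 peak lay 93753 bp from any start of the gene, and the nearest combined peak 492979 bp away. Of the 2323 replicate 1 peaks ranked at or above it, 99.5% were met by a replicate 2 peak and 12 were not. Among the 862 of these that lay in promoters, 2 were not, and the Dnah6 peak was 1 of them. Every 50-base word of this peak had a single position in the genome at up to 2 mismatches. What else differed between the replicates at this promoter was not tested.

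Dnah7a, Dnah7b and Dnah7c are closely related copies on chromosome 1 and are counted here with the doubt that short reads bring. Dnah7a (chr1:53397006-53706784, minus strand, ENSMUSG00000096141.2) had a promoter peak in both replicates, with a value of 8.87 in replicate 1 (rank 8943) and 13.73 in replicate 2 (rank 2689). Its place in the list rose from the top 22.5% in replicate 1 to the top 12.6% in replicate 2, while that of Dnah1 went the other way, from 8.48% to 27.6%. Dnah7b (chr1:46066315-46373546, plus strand, ENSMUSG00000041144.10) had its promoter peak in the first replicate alone, at a value of 8.41 (rank 9084) with a centre 33 bp downstream of its coding TSS. Dnah7c (chr1:46425592-46807476, plus strand, ENSMUSG00000101337.6), which is not among the 8, had a promoter peak of 12.62 in replicate 1 and of 3.04 in replicate 2. None of the Dnah7 promoter peaks was in the combined list or held a 14-base X-box.

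A site 1 base shorter was present at these promoters. It was noticed after the peak values were seen, when the 6-base arms GTTGCC and GGCAAC were searched with other numbers of bases between them. With 1 base in place of 2, and 1 mismatch in each arm, the 13-base word GTTGCTTAGCAAC lay inside the replicate 1 promoter peaks of Dnah7a, Dnah7b and Dnah7c. The windows are given on each gene's strand so that the shared word and its flanks can be compared.
Dnah7a, chr1:53706821-53706850: cgccagtttGTTGCTTAGCAACgaatcgac
Dnah7b, chr1:46066821-46066850: gccagtttGTTGCTTAGCAACgaatcgacc
Dnah7c, chr1:46425441-46425470: tccagtttGTTGCTTAGCAACgaatcgacc
The centre of the word lay upstream of the RefSeq TSS by 51 bp in Dnah7a, 18 bp in Dnah7b and 63 bp in Dnah7c. Against the nearest GENCODE TSS it lay 51 bp upstream in Dnah7a, 97 bp downstream in Dnah7b and 137 bp upstream in Dnah7c. It was 120 bp from the centre of the replicate 1 peak in Dnah7a, 64 bp in Dnah7b and 27 bp in Dnah7c. In replicate 2 it was 164 bp from the peak centre in Dnah7a and 74 bp in Dnah7c. The replicate 1 peak of Dnah7a also held another site with 1 spacer base, 263 bp from its centre. That of Dnah7b also held an exact half-site, 78 bp from its centre.

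The flanks of the word are shared by the Dnah7 copies, as are the promoters around it. RefSeq promoters (GRCm38.p6, 250 bases before to 50 after the start) matched 7 of the 8 genes and Dnah7c, and none was listed for Dnah3. Aligned end to end, those of Dnah7a and Dnah7b had 226 identical bases of 263 aligned (85.9%), Dnah7a and Dnah7c 252 of 281 (89.7%), and Dnah7b and Dnah7c 203 of 244 (83.2%). Pairs that include another member had fewer aligned bases in common, for instance 64.7% for Dnah2 and Dnah7a. The word in the 3 Dnah7 promoters is thus part of a longer shared stretch.

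The word is uncommon. At any annotated promoter it was present, on either strand, in 26 of 21938 protein-coding genes (0.119%) that are not among the 8 members. Leaving out Dnah7c, which is 1 of the 26, the word lay inside a replicate 1 peak in 20 of 25 genes, in 13 inside a replicate 2 peak and in 6 inside a combined peak. Genes that share a promoter were counted separately here. Any site with 1 spacer base and up to 2 arm mismatches was present in 10.3% of replicate 1 promoter peaks, 249 of 2448 replicate 2 promoter peaks and 13.5% of combined promoter peaks, and in 2.88% of 500-bp windows centred on the 5′-most TSS of all genes. With the X-box's own 2 spacer bases the same search found 30.3%, 32.6% and 52.6% of promoter peaks and 4.08% of windows. Lengths differed, with median widths of 360.5, 313 and 879 bp for these promoter peaks, and longer sequences offer more room for a match. In 1501-bp promoters of the 5′-most TSS the shares were 6.02% with 1 spacer base and 7.83% with 2. The peaks of Dnah1, Dnah10 and Dnah12 held no 13-base form. These matches describe letters in the windows and no binding was measured at single sites.

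**Figure D3:**
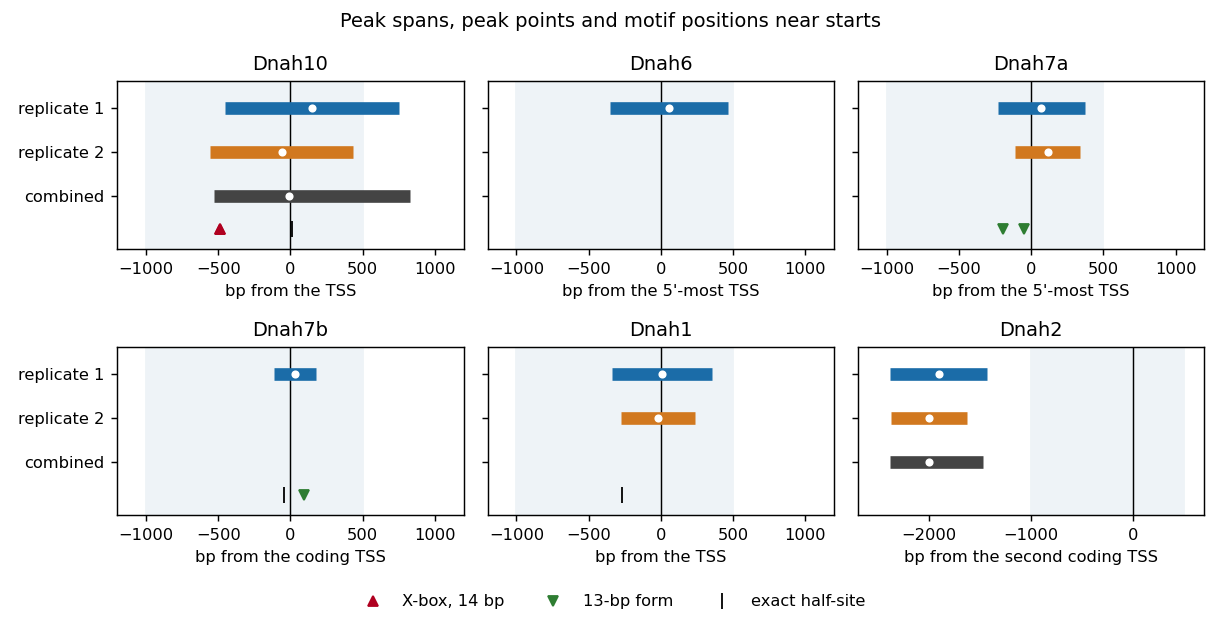
Spans of peaks (bars) near starts of 6 genes in replicate 1, replicate 2 and the combined list, by distance in bp from the TSS named on each axis, with the promoter window shaded. White dots mark the peak centre, or the summit in the combined list; marks below show 14-base X-boxes, 13-base forms and exact half-sites for Dnah10, Dnah7a, Dnah7b and Dnah1, and the X-box of Dnah10 sits near the peak edge.

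Dnah12 (chr14:26693274-26891703, plus strand, ENSMUSG00000021879.13) entered the count of replicate 1 only through an internal start. The peak had a value of 3.64 and rank 29330, and 12.5% of the promoter peaks of replicate 1 were at or below it. It lay 160 bp upstream of a protein-coding start that is 77755 bp inside the gene, over exon 25 and intron 24 of the longest coding transcript. No list had a peak at the first promoter.

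Dnah3 (chr7:119922671-120095280, minus strand, ENSMUSG00000052273.4) had no peak at any of its 5 annotated starts in any list. The nearest peak lay 11984 bp from a start in replicate 1, with a value of 4.79, and 28968 bp away in replicate 2, with a value of 4.31, both inside the gene. The nearest combined peak, of −log10 p 86.37, was 55064 bp away at the promoters of Dcun1d3 and Lyrm1.

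Reads with several genome positions had been discarded, so the share of each promoter in which a read could be placed bears on what the lists can hold. It was measured as the share of 50-base words with no second genome position at up to 2 mismatches. Every word was unique at the first promoters of Dnah1, Dnah2 and Dnah10, and 98.1% at Dnah6. At each of the starts of Dnah3, where no list had a peak, the share was at least 93.3%. Why no peak was listed there was not tested. The first promoter of Dnah12 had 60.1%, although the stretch from 250 bp upstream to 500 bp downstream was wholly unique. The promoter of Dnah7a had 71.5%, that of Dnah7b 59.0% at its coding start, and that of Dnah7c 70.2%. Within the promoter peaks the share was 86.5% and 84.4% for Dnah7a in replicates 1 and 2 and 95.5% for Dnah7b. Over the whole gene it was 36.9% for Dnah7a and 35.4% for Dnah7b, against 84.9% to 96.9% for the other 6 genes. How far the missing words lowered the values of the Dnah7 peaks was not tested.

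**Figure D4:**
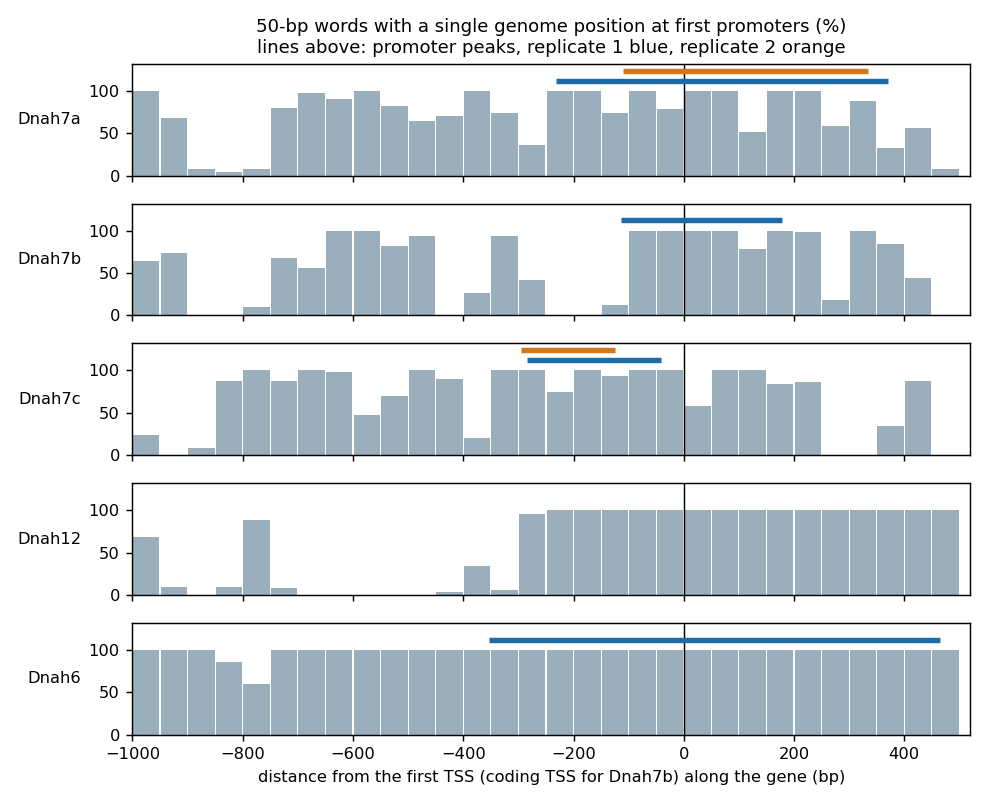
Share of 50-base words with a single genome position, in steps of 50 bp around the first TSS of Dnah7a, Dnah7b (coding TSS), Dnah7c, Dnah12 and Dnah6, with promoter peaks of replicate 1 (blue) and replicate 2 (orange) drawn above. The peaks of the Dnah7 genes lie over a stretch of mostly unique words between repeated stretches, and the words of Dnah12 are repeated only upstream.

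The 8 genes cover 1493 kb, and most of the weak peaks inside them were found once. Outside promoters, 7 of 8 genes held a total of 11 intragenic peaks in replicate 1, against 27.9% of all protein-coding genes with any, and 4 of 8 held 7 in replicate 2, against 21%. In the combined list 1 of 8 did, Dnah2, against 3.19%. Long genes offer more room, and per 100 kb of gene the counts were 0.737 in replicate 1 and 0.469 in replicate 2, below 1.51 and 0.829 over all genes. In the combined list the count per 100 kb was 0.067, from 1 peak, near the 0.0745 over all genes. The length of the 8 genes includes Dnah7a (309.8 kb) and Dnah7b (307.2 kb), where only 36.9% and 35.4% of words were unique. These counts were not corrected for the share of unique words, and how far it lowered them was not tested. Only the intron 1 peak of Dnah2 was found at overlapping positions in both replicates, 1 of 8 genes against 9.2% of all genes. It makes up 9.09% of the intragenic peaks of replicate 1 and 14.3% of those of replicate 2, where 17.8% and 33.7% of intragenic peaks in all genes were shared.

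Among the other 16 intragenic peaks, values ran from 2.34 to 8.28. An X-box with up to 3 mismatches was present in 4 of these 16 peaks, and 1 site is shown for each of the 3 with the highest values. The peak in intron 37 of Dnah7b (value 8.28, replicate 1) held a site with A7G and C11T, and 148 of its 382 50-base words were unique. A peak of 8.07 in intron 60 of Dnah1 in replicate 2 held 3 sites, and the site shown had G4T and A12T. Of its 222 50-base words 155 were unique, and the peak lay at the start of an antisense transcript, Gm35823. The peak in intron 68 of Dnah12 (7.27, replicate 1) held a site with G4C, C11T and A12G. None of these had an overlapping peak in the other replicate.
Dnah7b intron 37, chr1:46222908-46222937: gacaggctGTTGCCGTGGTAACtgttgctc
Dnah1 intron 60, chr14:31268598-31268627: ctaccctcGTTTCCATGGCTACctcctctg
Dnah12 intron 68, chr14:26878857-26878886: accacaggGTTCCCATGGTGACcctggctg
X-boxes by this rule were present in 25.7% of all replicate 1 peaks outside promoters and in 25.5% of those of replicate 2.

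The heavy chains were set beside other genes of the inner arms and beside other dynein heavy chains. Of 3 other inner arm subunits (the light intermediate chain Dnali1 and the dynein f intermediate chains Wdr63 and Wdr78), all 3 had a promoter peak in each replicate, and 2 were in the combined list. Of 7 anchors and regulators of inner arms, 6 had one in each replicate and 5 in the combined list. In replicate 1 these included Cfap57 at 265.04, Cfap44, a tether of dynein f, at 174.17 and the ruler protein gene Ccdc39 at 163.45, all above the 113.70 of Dnah10. Of 5 outer arm heavy chains, Dnah9 and Dnah11 had a promoter peak in each replicate, and Dnah11 was in the combined list. The replicate 2 peak of Dnah9 was near the bottom of its list, at 2.77 and rank 20828 of 21274. The combined peaks of Dnah11 and Wdr78 were also near the bottom, at ranks 2605 and 2713 of 2726. Of 4 unplaced or cytoplasmic heavy chains, 3 had one in each replicate, led by Dync2h1, the motor of retrograde transport in cilia, at 250.51 in replicate 1 and 120.77 in replicate 2. Among these 3, Dnah7c was weak in replicate 2, at 3.04 and rank 20144. Over all protein-coding genes, 9.05% had a promoter peak in each replicate and 5.26% had one in the combined list. The inner arm heavy chains, with 3 of 8 in each replicate, were not tested against these lists, which are small and were chosen with results known.

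**Figure D5:**
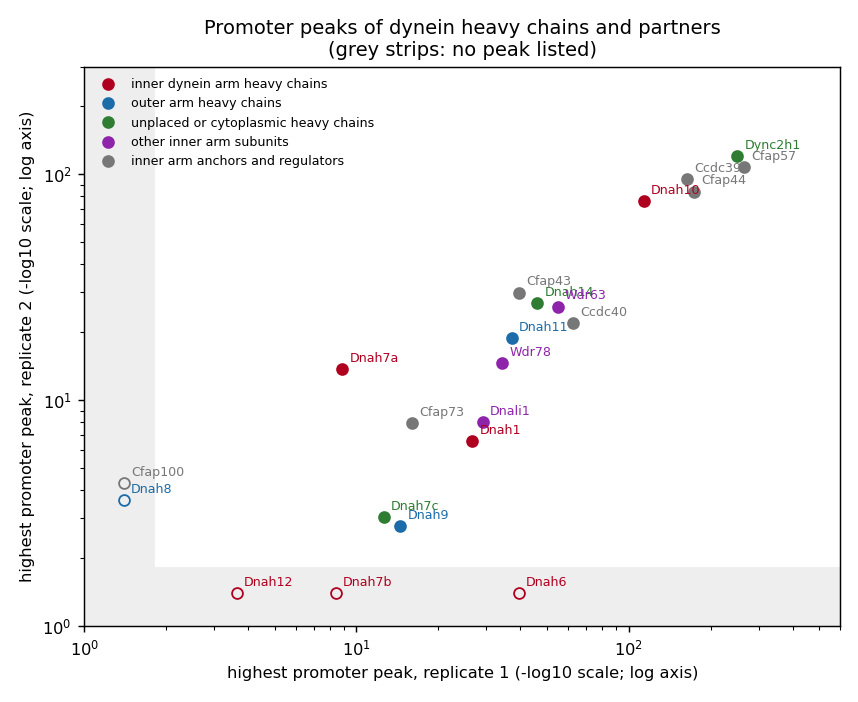
Highest promoter peak of each gene in replicate 1 (x axis) and replicate 2 (y axis), both on the caller's −log10 scale and drawn on log axes, for the inner arm heavy chains (red) and 4 other lists, with genes lacking a promoter peak in both left out. Points in the grey strips have no peak in that replicate; Dnah6, at 39.43 in replicate 1, lies far to the right in the lower strip, while genes with similar replicate 1 values have a replicate 2 peak.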

How the data were processed

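Per the labels, reads were processed by the authors with CASAVA 1.8.2, Bowtie 0.12.7 and MACS2 2.0.10.20130520 on GRCm38. The study's methods describe discarding reads with several positions and removing reads that mapped to human from the second run of replicate 2. Peaks were called against input at a relaxed threshold and limited in number. Reproducible peaks were then taken by the irreproducible discovery rate, a measure of agreement between the replicates. How that reproducible set relates to the combined list was not examined here. Each peak of the deposited replicate lists has a single −log10 value, and whether it is a p-value or a q-value is not given in the sources used here. The deposited combined list gives a score (the whole part of 10 times −log10 p), a fold enrichment (a ratio), −log10 p, −log10 q and a summit. The archive attaches it to replicate 2, but its peak names mark it as a joint call, so its peaks share reads with both replicates and are no further replication. No reads, depths or lists for the inputs were used, and no test between groups was made. Replicates were counted in separate lists, and a peak found in each replicate was the only check between samples.

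Gene models were those of GENCODE vM21 on GRCm38.p6, which shares coordinates with the authors' build. Starts may differ from the release they used. Deposited peak starts were raised by 1, so that all positions given here are 1-based. Overlap required 1 bp, and places in a list are ranks by its value, with ties given the best rank. The X-box search covered both strands through the palindrome. RefSeq promoters were aligned with Biopython 1.88 (global, match 1, mismatch −1). Scripts ran in Python 3.11.15 and were tested on simulated peaks, sites and genome words. The named genes were the 8 members, 4 lists of dynein and inner arm genes, and genes whose promoter or body a described peak meets. The members and lists were chosen with earlier results of these data known, and the 13-base site was chosen after seeing the data. Motif matches in the promoter peak of Dnah6 and in the intron 1 peak of Dnah2 are not reported here.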

Additional observations from a re-analysis of the deposited data

How the results depend on the processing

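Of 5 counts over the 8 genes (promoter peaks in the combined list and in both replicates, intragenic peaks in each of these, and promoter peaks with an X-box), 25 of 32 other settings left the count within 1.5 times. The promoter count of 3 genes in both replicates ranged from 3 without replicate 1 to 6 without replicate 2, and the intragenic count of 1 gene from 4 without replicate 1 to 7 without replicate 2. Promoter peaks with an X-box, 1 gene (Dnah10), fell to 0 with at most 2 mismatches and to 0 in a window of 200 bp centred on the peak. It stayed at 1 in a window of 200 bp around the summit, a setting that trimmed the combined list alone, while the replicate peaks, which carry no summit, were searched whole. The same count rose to 4 genes when the 13-base form was allowed (Dnah7a and Dnah7b among them), a setting chosen after seeing the data. The combined promoter count of 1 rose to 2 with a window of 2500 bp upstream, also chosen after seeing the data, because the wider window reached the intron 1 peak of Dnah2. With the outer 5′ end of the RefSeq gene as the only start, added likewise, Dnah1 left the count of both replicates, which became 2. That end lies 1995 bp upstream of the start behind the RefSeq promoter of Dnah1. No paired analysis was possible because no result came from a test and the inputs had no peak list here. The lists limit what can be said: peaks are called or not, with 2 replicates and no depth, and the relaxed replicate lists hold many peaks that occur once.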
